A study of Caenorhabditis elegans with 30 samples.

Results

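The response of the *ire-1* mutant of *Caenorhabditis elegans* to RNAi against *pmt-2* was read from 6 of the 30 arrays of the series. Of these, 3 were of mutants on the empty-vector control (L4440), called vector here, and 3 of mutants under pmt-2 RNAi. The members were the arrays with these labels, and all 25879 genes that 1 probe set each could stand for were read on them. The labels describe the strain as an IRE1 knockout without giving its allele, and knockouts of ATF6 and PEK1, called here the atf-6 and pek-1 mutants, are described in the same way. Those mutants and wild type each had 3 vector arrays and 3 pmt-2 RNAi arrays and served as comparisons, while 3 further arrays of wild type with tunicamycin and 3 of a pmt-2 mutant entered only the estimate of the spread. All of these animals grew from synchronised L1 larvae until most were young adults, with 25 µg/mL carbenicillin and 1 mM IPTG, and whole animals were extracted. The labels' treatment text names tunicamycin for every sample, whereas titles and characteristics give the drug to 1 wild-type group only, and the source labels of the wild-type RNAi and tunicamycin groups are exchanged relative to their titles. Groups were taken from the titles. No label says that arrays sharing a group are separate cultures, so the p-values measure the spread between arrays, which may be technical.

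IRE-1 is a kinase and ribonuclease in the membrane of the endoplasmic reticulum (ER), the compartment in which secreted and membrane proteins fold and most phospholipids are made. When unfolded proteins accumulate or the lipid composition of the membrane is disturbed, IRE-1 cuts the xbp-1 messenger RNA so that it can be joined into the form that encodes an active transcription factor, and XBP-1 then raises chaperone genes. PEK-1 and ATF-6 are the other sensors of this unfolded protein response (UPR). PMT-2 methylates phosphoethanolamine derivatives on the route to phosphatidylcholine, a main phospholipid of membranes, with S-adenosylmethionine as the methyl donor. According to the title of the series, the question is how IRE-1 activated by stress of the lipid bilayer affects autophagy, and the arrays compared here ask which genes respond to the loss of pmt-2 when IRE-1 is missing.

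Values are log2 signals after RMA normalisation, on which a difference of 1 is a 2-fold change. Each change is given with its standard error (SE), and each adjusted p-value is from limma's moderated test with Benjamini-Hochberg adjustment over 28387 probe sets; a gene was called at an adjusted p under 0.05. The array medians lay between 3.82 and 3.86 in the groups of the ire-1 mutant. Correlations between arrays of 1 group were 0.992 to 0.994 in the mutant, and no array was a duplicate of another. The number of arrays limits the precision. Across all groups, the wild-type arrays under RNAi stood apart most: replicate 2 deviated from its group mean by a root mean square of 0.278 and replicate 1 by 0.256, against 0.167 to 0.187 for the 6 arrays of the ire-1 mutant. Gene positions are printed as the deposited annotation has them; their genome build was not stated in the labels or files used here.

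Both targets were examined before other genes. In the ire-1 mutant, pmt-2 (locus F54D11.1 on chromosome V, start 4628566, end 4635252) had log2 signals of 9.66, 9.69 and 9.60 on vector and 7.52, 7.54 and 7.35 under RNAi. It fell by 2.18 (SE 0.11, limma adjusted p = 5.22e-12), the groups lying far apart. It fell by 3.51 in wild type, from a mean of 10.14 to 6.63, and it fell by 3.37 and 2.90 in the atf-6 and pek-1 mutants. The knockdown seen in the ire-1 mutant was thus smaller than in wild type, by 1.33 (SE 0.16, limma adjusted p = 3.55e-06). The mutant started lower, by 0.50 on vector (limma adjusted p = 0.00772), and ended higher, at 7.47 against 6.63. The part of this smaller knockdown in the differences described below was not tested.

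The gene ire-1 (locus C41C4.4 on chromosome II, start 8112214, end 8124788) stood at 6.24, 6.04 and 6.28 in the mutant on vector and at 6.07, 6.09 and 5.90 under RNAi. RNAi made a difference of -0.17 (SE 0.10, limma adjusted p = 0.214). In wild type the means were 8.66 and 8.78, so the mutant on vector lay lower by 2.47 (limma adjusted p = 7.5e-15). On vector, pek-1 read 6.74 in the pek-1 mutant against 7.59 in wild type. The gene atf-6 read 7.28 in the atf-6 mutant against 7.51, a probe set signal that does not by itself show the mutation.

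**Figure D1:**
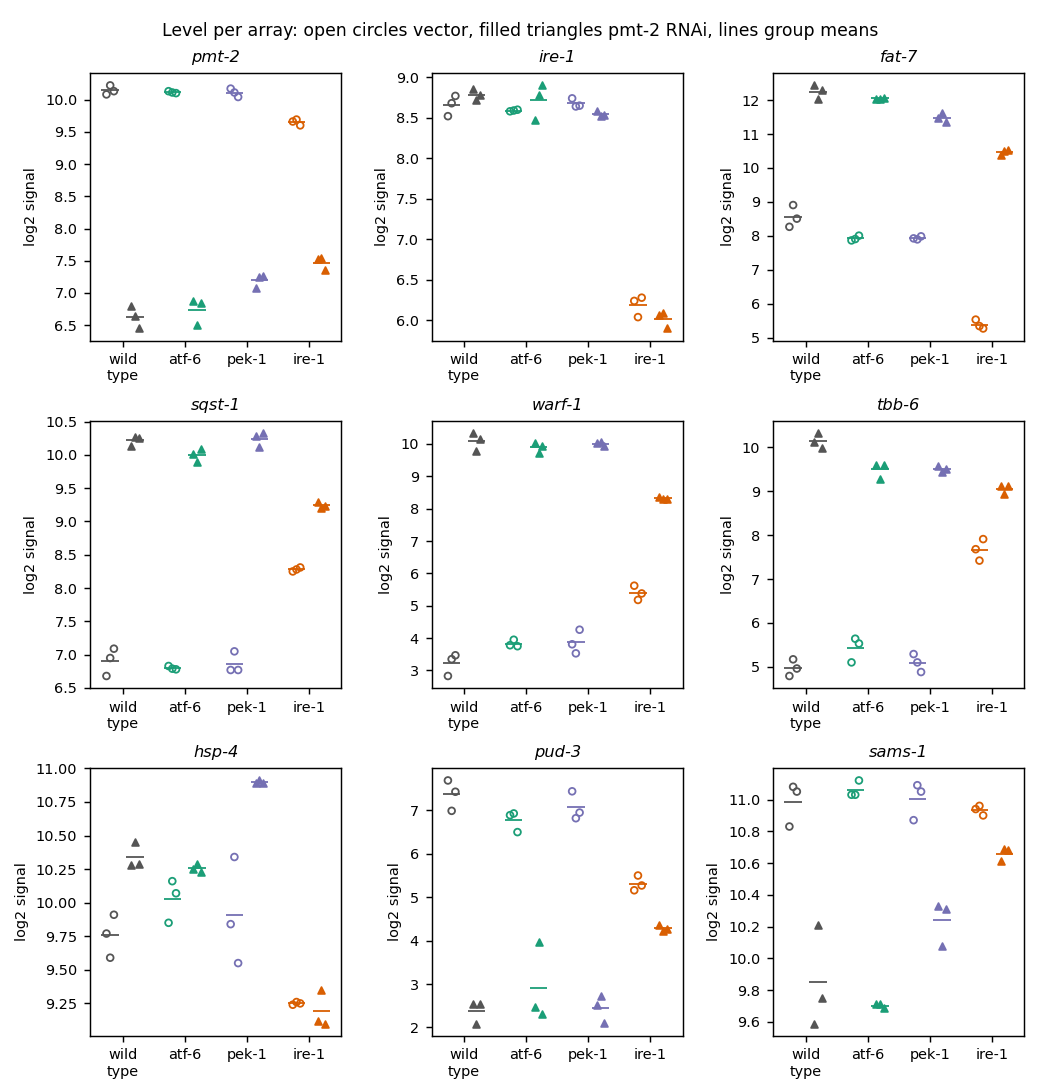
Log2 signal of 9 genes on every vector array (open circles) and pmt-2 RNAi array (filled triangles) of the 4 genotypes, with a short line at each group mean. In the ire-1 mutant sqst-1, warf-1 and tbb-6 start higher than in wild type and end lower, pud-3 starts lower and ends higher, and fat-7 starts at 5.39 against 8.57 and rises by 5.07.

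RNAi against pmt-2 changed 7975 of the 28387 probe sets in the ire-1 mutant, 4052 upwards (14.3%) and 3923 downwards (13.8%), which is 28.1% of those tested. Centred on the median change of all probe sets, -0.08, the split was 4713 upwards and 2471 downwards. Counted as genes, 7478 of 25879 were called (28.9%), of which 3823 rose (14.8%) and 3655 fell (14.1%). The rises were larger than the falls, with a median of 0.77 among the probe sets that rose and -0.51 among those that fell. Of the called probe sets, 7767 (97.4%) had no overlap between vector and RNAi arrays, so the lack of overlap stated for called genes below is the rule among calls. The share without overlap was not counted over all probe sets, so it adds no support where a gene was not called. At least 4-fold, 69 probe sets rose and 3 fell. The corresponding numbers were 250 and 91 in wild type, 244 and 78 without atf-6 and 658 and 100 without pek-1. Calls in total numbered 9467 (33.3%) in wild type, 8478 (29.9%) in the atf-6 mutant and 12460 (43.9%) in the pek-1 mutant. The ire-1 mutant thus had a share of called probe sets close to that of the atf-6 mutant, with fewer large changes. These totals were not tested against each other. Of all genes, 16.3% rose and 18.1% fell in wild type. Counts of list members below are to be set beside these shares and the 14.8% and 14.1% of the ire-1 mutant.

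Much of the response ran in the same direction as in wild type, from which the mutant shares no arrays. Of the genes that rose in the ire-1 mutant, 2747 also rose in wild type (71.85% of the mutant's and 65.26% of wild type's), and 2251 fell in both (61.59% and 48.12%). Opposite calls were made for 98 genes. Across the 25879 genes the changes correlated with Pearson's r = 0.697 (Spearman's rho 0.616), a description across genes that are not independent replicates.

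The test of the difference itself called 1652 genes (6.38%) between the ire-1 mutant and wild type, 809 with a higher value in the mutant (3.13%) and 843 with a lower one (3.26%). Among the 843, 357 rose in both genotypes and 344 rose in wild type only. Of the other 809, 455 fell in wild type only and 141 fell in both, and 136 rose in the mutant only. Against the mean response of wild type, the atf-6 mutant and the pek-1 mutant, 2400 genes were called (9.27%), 1152 higher (4.45%) and 1248 lower (4.82%).

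**Figure D2:**
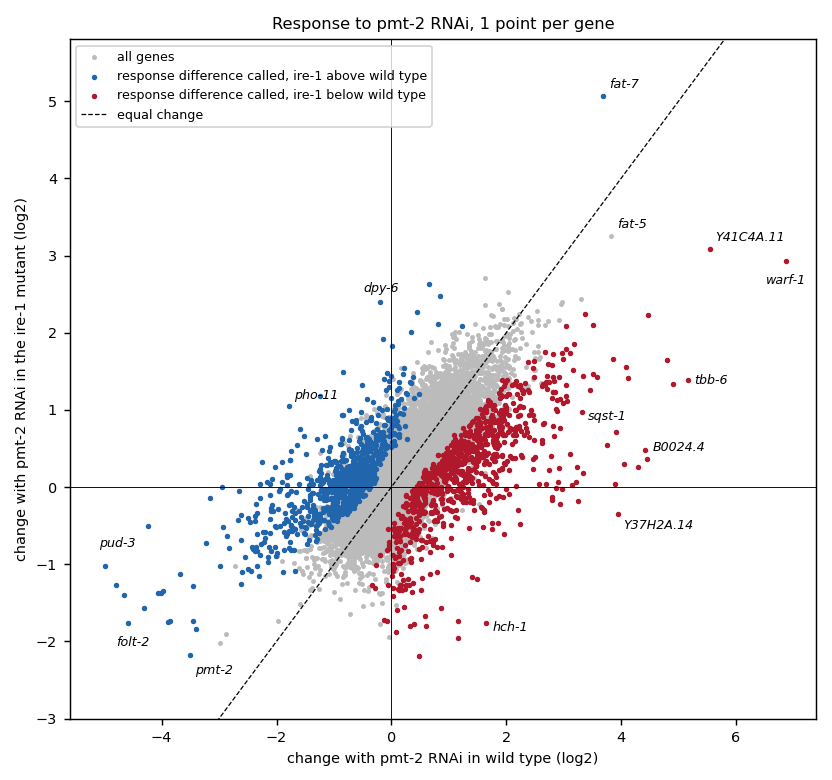
Change under pmt-2 RNAi in the ire-1 mutant (vertical axis, log2) against that in wild type (horizontal axis, log2) for 25879 genes, with the genes whose difference between the genotypes was called marked. The cloud follows the diagonal loosely, with pmt-2 among the falls in both, while warf-1 and tbb-6 lie far under the diagonal and pud-3 far above it.

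The size of the response was also read on genes picked in the atf-6 mutant, so that neither wild type nor the ire-1 mutant chose them. The atf-6 mutant's response called 3730 genes higher (14.4%), and these had a median change of 0.865 in wild type, with 83.9% called higher there, and 0.590 in the ire-1 mutant, with 65.7% called higher. In the pek-1 mutant the median was 1.05. The 4100 genes that fell in the atf-6 mutant (15.8%) had medians of -0.509 in wild type, -0.320 without ire-1 and -0.649 without pek-1, and 47.1% of them were called lower in the ire-1 mutant against 73.1% in wild type. The gap was narrower for genes picked in the pek-1 mutant. Its 5020 raised genes had medians of 0.714 in wild type and 0.582 in the ire-1 mutant, with 72% and 63.7% called, and its 6602 lowered genes had -0.402 and -0.315, with 57.3% and 42.3% called.

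Without any RNAi, the ire-1 mutant already stood on the RNAi side of wild type for the strongest responders. Of the 229 genes that rose at least 4-fold in the atf-6 mutant, 211 were higher in the ire-1 mutant on vector than in wild type on vector, with a median difference of 0.874, and 135 of the 229 were called above wild type and 1 below. Of the 60 genes that fell at least 4-fold, 59 were lower in the ire-1 mutant on vector, with a median difference of -0.815, and 40 were called below and 1 above. Over all 25879 genes the mutant on vector was above wild type for 12457, with a median of -0.011, and 2.98% of genes were called above and 3.33% below.

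Under RNAi the position depended on which genes were read. The 229 genes picked in the atf-6 mutant were then lower in the ire-1 mutant than in wild type for 147 and higher for 82, with a median difference of -0.377, and the 60 genes were higher in the mutant for 53, with a median of 0.975. Without wild-type RNAi replicate 2, the array that stood apart most, the medians were -0.257 and 0.949, an alternative added after seeing the data. In their changes, the 229 genes had a median of 2.27 in wild type and 1.34 in the ire-1 mutant, and the 60 genes -2.62 and -0.806. The 229 were a mixed set. The cuticle and moulting genes col-17, dpy-13, noah-1 and mlt-8 stayed above wild type under RNAi, by 1.69, 1.34, 1.15 and 1.36. In the pek-1 mutant under RNAi they were above it by 1.48, 1.31, 1.19 and 1.27. The collagen genes dpy-14 and dpy-17 went the other way in the ire-1 mutant under RNAi, at -1.31 and -1.17. The pek-1 mutant on vector did not share the position of the ire-1 mutant: its median difference from wild type on vector was -0.153 for the 229 genes, with 67 above, and -0.145 for the 60. Of the genes changed at least 4-fold in the pek-1 mutant, the ire-1 mutant on vector had 564 of 615 raised genes above wild type (median 0.70) and 57 of 58 lowered genes below it (median -0.986). Under RNAi these 615 genes did not turn: 354 were still above wild type and 261 below, with a median of 0.262, while the 58 were above it for 49 (median 0.732). The difference on vector and the difference in response share the vector arrays, so levels rather than a relation between them are given.

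**Figure D3:**
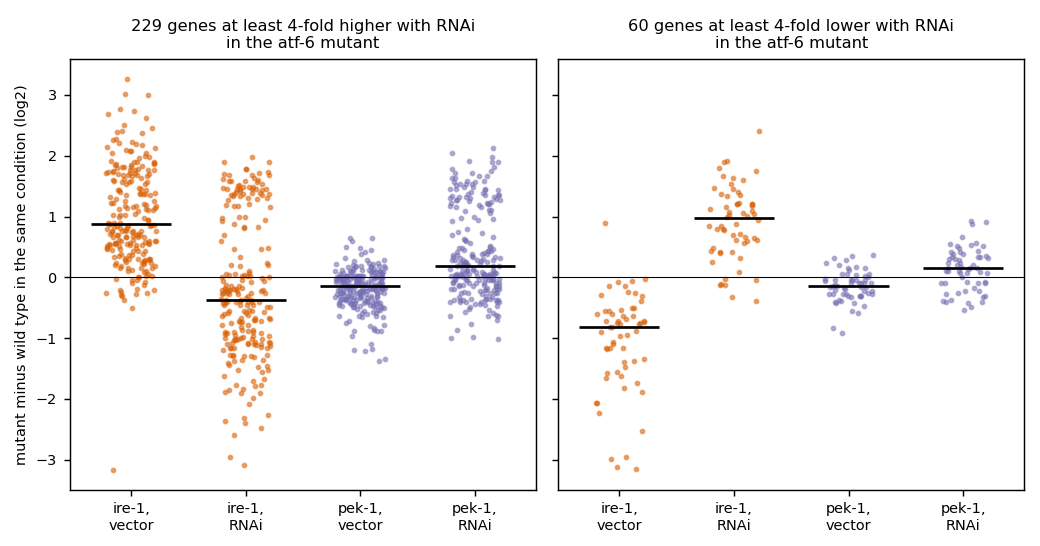
Difference in log2 signal from wild type in the same condition for the 229 genes that rose and the 60 genes that fell at least 4-fold in the atf-6 mutant, for the ire-1 and pek-1 mutants on vector and under RNAi. On vector the ire-1 mutant is above wild type for the genes that rise (median 0.874) and below it for those that fall (median -0.815), while the pek-1 mutant has medians of -0.153 and -0.145.

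Individual genes with a narrower range in the ire-1 mutant are given next. Most of them were named for the size of their difference from wild type, so they illustrate such a range and add no support to it. warf-1, an ARF-like small GTPase (locus F45E4.1, chromosome IV, 7634821 to 7635696), had log2 signals of 5.62, 5.18 and 5.38 on vector and 8.35, 8.31 and 8.3 under RNAi in the ire-1 mutant. It was far higher under RNAi, without overlap. The rise was 2.93 (SE 0.18, limma adjusted p = 1.85e-10). In wild type the means went from 3.21 to 10.09, a wider range at both ends, and the responses differed by -3.95 (SE 0.26, limma adjusted p = 5.42e-10).

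The same held for tbb-6, a beta-tubulin gene known to be raised by mitochondrial stress (locus T04H1.9, chromosome V, 12261785 to 12263349). Its signals were 7.68, 7.42 and 7.91 on vector and 9.11, 8.94 and 9.12 under RNAi, a rise of 1.39 (SE 0.16, limma adjusted p = 1.41e-06) with no overlap. Wild type went from a mean of 4.98 to 10.14, and the difference of the responses was -3.78 (limma adjusted p = 1.45e-10). On vector the mutant was higher by 2.69. Y41C4A.11 rose by 3.08 in the mutant, from 4.66, 4.15 and 4.47 to 7.55, 7.56 and 7.43, and by 5.54 in wild type.

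Several genes that rose steeply in wild type had no called change in the ire-1 mutant, where their vector level was intermediate. Y37H2A.14 stood at 7.29, 6.84 and 7.16 on vector and at 6.89, 6.80 and 6.56 under RNAi, a difference of -0.35 (limma adjusted p = 0.305), against means of 4.1 and 8.04 in wild type. asp-17, which encodes an aspartyl protease, had signals of 6.88, 7.06 and 7.24 on vector and 7.23, 7.37 and 7.47 under RNAi (0.30, limma adjusted p = 0.255), against 4.78 and 8.83 in wild type. Both groups of the mutant lay between the wild-type levels. B0024.4 likewise differed by 0.37 in the mutant (limma adjusted p = 0.266) and moved from 2.61 to 7.05 in wild type. lys-3, a lysozyme gene, did rise in the mutant, by 1.64 (SE 0.34, limma adjusted p = 8.32e-04), against 4.79 in wild type.

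Among the genes that fell, pud-3 and pud-4, neighbours whose products are known to be raised in mutants of the insulin receptor gene daf-2, gave the mirror image. pud-3 (locus F15E11.15, chromosome V, 2324509 to 2326846) stood at 5.16, 5.50 and 5.27 on vector and at 4.35, 4.23 and 4.26 under RNAi in the ire-1 mutant. It fell by 1.03 (SE 0.29, limma adjusted p = 0.0103), without overlap between the groups. In wild type its mean went from 7.37 to 2.38, and the responses differed by 3.96 (SE 0.41, limma adjusted p = 4.73e-07). pud-4 fell by 1.26 (SE 0.35, limma adjusted p = 0.00839) in the mutant and by 4.80 in wild type.

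pho-11, an acid phosphatase gene, moved in opposite directions. It rose in the ire-1 mutant from 7.09, 7.43 and 6.94 to 8.08, 8.26 and 8.26 (1.05, SE 0.15, limma adjusted p = 1.44e-05), and in wild type its mean went from 10.06 to 8.27. The levels under RNAi were alike, at 8.20 and 8.27, and the starting levels were far apart. The difference of the responses was 2.83 (SE 0.21, limma adjusted p = 1.84e-09). Y48E1B.8, dhs-26 and C30G12.2 fell in wild type from means of 6.21, 6.68 and 8.12 to 1.98, 3.51 and 5.18, and in the mutant they stood at 3.09, 3.52 and 5.13 on vector and at 2.59, 3.39 and 5.13 under RNAi.

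The largest rise in the ire-1 mutant belonged to fat-7, which encodes a delta-9 desaturase that turns stearic into oleic acid and is a known target of the lipid regulators SBP-1 and NHR-80. In the mutant fat-7 (locus F10D2.9, chromosome V, 7151337 to 7153127) had log2 signals of 5.54, 5.35 and 5.28 on vector and 10.37, 10.50 and 10.52 under RNAi. It rose by 5.07 (SE 0.18, limma adjusted p = 1.12e-15). This gene did not have the narrower range of the genes above. In wild type the means were 8.57 and 12.25, so the mutant was lower in both conditions. Its rise exceeded that of wild type by 1.39 (SE 0.25, limma adjusted p = 8.18e-04).

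The related desaturases rose as well. fat-5, which acts on palmitic acid, had signals of 4.92, 3.90 and 3.82 on vector and 7.6, 7.29 and 7.52 under RNAi, a rise of 3.26 (SE 0.25, limma adjusted p = 2.75e-09) against 3.83 in wild type. fat-6, the other stearoyl desaturase, went from 9.74, 9.77 and 9.65 to 11.16, 11.06 and 11.10 (1.39, SE 0.11, limma adjusted p = 3.06e-09). All 3 genes were separated between vector and RNAi without overlap.

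Of the 32 measured genes of fatty acid synthesis, desaturation and elongation, 22 rose and 1 fell, with a median of 0.56 against -0.076 over all genes, where 14.8% rose. In wild type 21 rose and 5 fell (median 0.70), with 16.3% of all genes higher there and 18.1% lower. The polyunsaturated fatty acid desaturases fat-2, fat-3 and fat-4 rose by 1.31, 1.36 and 1.15 in the ire-1 mutant, and the elongase elo-7 by 2.11. pod-2, the acetyl-CoA carboxylase, rose by 1.00, and the regulators sbp-1, mdt-15 and nhr-80 by 0.48, 0.50 and 0.70. The exception that fell was acly-2, an ATP citrate lyase gene (-0.33). elo-6 and elo-5, elongases of branched-chain fatty acids, differed between genotypes. elo-6 rose by 0.47 in the mutant and changed by -0.73 in wild type (difference 1.21, limma adjusted p = 6.75e-07), and elo-5 had -0.14 against -1.06 (difference 0.92, limma adjusted p = 1.08e-04).

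The glyoxylate cycle, which lets worms make sugar from fat, was also represented among the rises. Of 13 measured genes of this cycle, gluconeogenesis and trehalose synthesis, 8 rose and 0 fell (limma; median 0.49), and 8 rose and 1 fell in wild type (median 0.36). icl-1, the isocitrate lyase and malate synthase, had signals of 7.45, 7.32 and 7.06 on vector and 9.67, 9.47 and 9.52 under RNAi. It rose by 2.28 (SE 0.15, limma adjusted p = 3.94e-10), as it did in wild type (2.54). The trehalose synthases tps-1 and tps-2 rose by 1.11 and 0.70, and pck-2, a phosphoenolpyruvate carboxykinase gene, by 0.87.

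For fatty acid oxidation and lipolysis the genotypes parted. Of 54 genes, 22 rose (40.7%) and 8 fell (14.8%) in the ire-1 mutant (median 0.12), against 17 and 18 in wild type (median 0.03). The difference was called higher for 14 and lower for 6, against 3.13% and 3.26% of all genes. acs-2, a mitochondrial acyl-CoA synthetase known from fasting, rose from 7.01, 6.45 and 6.63 to 9.03, 8.84 and 8.96 (2.24, SE 0.24, limma adjusted p = 3.47e-07). In wild type it went from 5.13 to 8.49; that the mutant's change was smaller, by 1.12 (limma adjusted p = 0.0435), no longer passed in 12 of 22 alternative settings. The lipase gene lipl-3 rose by 1.94 in the mutant and 1.62 in wild type.

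acdh-1, an acyl-CoA dehydrogenase that responds to propionate and diet, fell in the mutant from 8.0, 8.31 and 7.78 to 6.22, 7.28 and 6.46 (-1.38, SE 0.30, limma adjusted p = 0.00131). The groups did not overlap, although RNAi replicate 2 was less far down. In wild type the fall was 4.07, and the difference was 2.69 (SE 0.42, limma adjusted p = 1.19e-04). The peroxisomal acyl-CoA oxidase genes acox-1.2, acox-1.3 and acox-1.4, members of the family that shortens ascaroside side chains, had changes of -0.22, -0.37 and 0.16 in the mutant and fell by 2.35, 2.63 and 1.82 in wild type. The difference for acox-1.3 was 2.26 (limma adjusted p = 8.93e-08).

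On the route to phosphatidylcholine itself, pmt-1, the partner methyltransferase that acts before PMT-2, had signals of 10.37, 10.35 and 10.39 on vector and 11.55, 11.52 and 11.60 under RNAi. It rose by 1.18 (SE 0.10, limma adjusted p = 1.05e-08). All RNAi arrays lay above all vector arrays. Wild type rose by 1.92 from a lower start of 9.97, a difference of -0.74 (limma adjusted p = 0.00115).

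sams-1, the main S-adenosylmethionine synthetase gene (locus C49F5.1, chromosome X, 11965894 to 11969716), stood at 10.94, 10.96 and 10.90 on vector and at 10.61, 10.69 and 10.68 under RNAi. The groups did not overlap, but the difference of -0.27 (SE 0.12) had a limma adjusted p of 0.0821 and was called in 4 of 16 alternative settings. In wild type it fell by 1.14, and the responses differed by 0.86 (SE 0.16, limma adjusted p = 0.00122). folt-2, a folate transporter gene, fell in the mutant from 9.44, 9.40 and 9.35 to 7.19, 8.04 and 7.70 (-1.76, SE 0.25, limma adjusted p = 2.08e-05), the groups lying apart. In wild type it fell by 4.59, from 10.56 to 5.97 (difference 2.83, SE 0.36, limma adjusted p = 6.36e-06).

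ckb-2, a choline kinase gene, showed no called response in the ire-1 mutant. Its signals were 5.35, 5.78 and 5.32 on vector and 5.58, 5.64 and 5.75 under RNAi, overlapping between the groups (0.17, limma adjusted p = 0.634). In wild type it rose from 7.12 to 8.92, and the responses differed by -1.63 (SE 0.32, limma adjusted p = 0.00195). On vector ckb-2 was already lower in the mutant, by 1.64 (limma adjusted p = 2.95e-05). Choline kinases act on the other route to phosphatidylcholine, from dietary choline.

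Phospholipid remodelling genes included rises in both genotypes. acl-12, of the glycerophospholipid acyltransferase family, went from 6.90, 6.98 and 7.01 to 8.49, 8.57 and 8.79 (1.66, SE 0.13, limma adjusted p = 2.74e-09), against 2.99 in wild type, a difference of -1.33 (limma adjusted p = 1.61e-05). mboa-1 rose by 1.46 and acl-13 by 1.02. Of the 41 measured genes of phospholipid synthesis and remodelling, 13 rose and 8 fell in the mutant (median 0.06), and 17 and 12 in wild type. The 8 falls became 5 without vector replicate 1, 4 without vector replicate 3, 3 without RNAi replicate 1 and 4 without RNAi replicate 3.

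Of the sphingolipid enzymes, asm-3, an acid sphingomyelinase gene, fell from 5.03, 5.29 and 5.64 to 3.50, 4.17 and 4.16 (-1.37, SE 0.22, limma adjusted p = 6.31e-05). It fell by 4.02 in wild type, from 7.55 to 3.53, a difference of 2.64 (limma adjusted p = 2.11e-06). Under RNAi the genotypes were close, at 3.95 and 3.53. cgt-1, a ceramide glucosyltransferase gene, rose in wild type by 2.01 and changed by 0.34 in the mutant (difference -1.67, limma adjusted p = 1.39e-05).

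Of the 10 UPR sensors and factors measured, 5 rose and 1 fell in the ire-1 mutant (median 0.22), and 6 and 2 in wild type. xbp-1 rose from 9.44, 9.54 and 9.56 to 9.95, 9.92 and 10.10 (0.47, SE 0.09, limma adjusted p = 4.01e-04), and by 0.80 in wild type; a probe set signal does not tell the spliced from the unspliced form. pek-1 went from 7.28, 7.09 and 7.24 to 7.92, 7.90 and 7.90 (0.70, SE 0.10, limma adjusted p = 3.23e-05), against 1.13 in wild type. Neither gene overlapped between vector and RNAi. atf-6 rose by 0.38 (limma adjusted p = 0.00895).

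atf-4, the factor translated downstream of PEK-1, rose by 0.42 (SE 0.12, limma adjusted p = 0.011), a call lost without vector replicate 3 (adjusted p = 0.0594). zip-2, a bZIP factor known from pathogen and translation surveillance, rose from 9.88, 9.92 and 9.77 to 10.62, 10.39 and 10.58 (0.68, limma adjusted p = 5.42e-05). On vector it was higher than in wild type by 0.90 (limma adjusted p = 2.4e-06), and its response was smaller by 0.76 (limma adjusted p = 0.00171). The fall was that of rtcb-1, the ligase that joins cut xbp-1 (-0.45, limma adjusted p = 0.00639), a call lost without RNAi replicate 3 (adjusted p = 0.0572).

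hsp-4, a BiP chaperone and the standard reporter of IRE-1 activity in worms (locus F43E2.8, chromosome II, 7350076 to 7352593), gave no called response. It had log2 signals of 9.24, 9.26 and 9.25 on vector and 9.12, 9.35 and 9.10 under RNAi in the ire-1 mutant. The groups overlapped, with a difference of -0.06 (SE 0.14, limma adjusted p = 0.8). In wild type its mean went from 9.76 to 10.34, and the changes were 0.23 and 0.99 in the atf-6 and pek-1 mutants. Against the mean of these genotypes the response was lower by 0.66 (limma adjusted p = 0.00694, called in all 34 alternative settings). Against wild type alone it was lower by 0.64 (SE 0.19, limma adjusted p = 0.0466), which did not pass in 14 of 22 settings. The mutant on vector was lower by 0.51 (limma adjusted p = 0.0228).

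Changes of other ER chaperones were small in the mutant. hsp-3, the second BiP gene, stood at 9.46, 9.40 and 9.40 on vector and 9.69, 9.52 and 9.52 under RNAi, with no overlap and a difference of 0.16 (SE 0.11, limma adjusted p = 0.314) against 0.53 in wild type. crt-1, calreticulin, went from 10.42, 10.32 and 10.52 to 10.66, 10.68 and 10.67. Its RNAi arrays all lay above its vector arrays, but the call (0.25, SE 0.08, limma adjusted p = 0.0238) was lost without vector replicate 1 or 2 (adjusted p = 0.0571 and 0.118) and without RNAi replicate 1, 2 or 3 (adjusted p = 0.056, 0.0602 and 0.0578). In wild type crt-1 rose by 0.71. enpl-1, the GRP94 chaperone, had 0.18 against 0.66 in wild type (difference -0.48, limma adjusted p = 0.00764), and dnj-27, an ER J-protein, -0.02 against 0.51.

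Some folding enzymes rose in the mutant too. C14B9.2, a protein disulfide isomerase gene, went from 7.07, 6.84 and 7.04 to 7.94, 7.78 and 7.91 (0.89, SE 0.10, limma adjusted p = 1.19e-06), clearly apart, against 1.36 in wild type. uggt-2, of the glycoprotein glucosyltransferase family, rose by 0.92 and fkb-3, a peptidyl-prolyl isomerase gene, by 0.62. uggt-2 was dim, with authors' group means of 2.97 on vector and 3.9 under RNAi. Over the 27 chaperone and folding enzyme genes of the ER, 6 were called up (22.2%) and 1 down (3.7%) in the mutant (median 0.07). The counts were 13 and 2 in wild type (median 0.16), 10 and 2 in the atf-6 mutant (0.16) and 17 and 3 in the pek-1 mutant (0.47), where 19.4% of all genes rose and 25.5% fell. The 6 became 3 without vector replicate 2 or without RNAi replicate 1.

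The difference from wild type was called lower for 5 chaperones and higher for 0 (limma), and against the mean of the other genotypes lower for 11 and higher for 0. Of all genes, 3.26% and 4.82% were called lower in these contrasts. The 5 became 3 without wild-type vector replicate 1, the mutant's vector replicate 1 or its RNAi replicate 1, and 2 without its vector replicate 3. The 11 became 6 without RNAi replicate 2 of the ire-1 mutant. Of 23 genes of ER-associated degradation, which removes misfolded proteins, 9 fell and 0 rose in the mutant (limma), and 9 fell and 1 rose in wild type, with no called difference. mans-4, ufd-2, rnf-5 and ufd-3 fell by 0.60, 0.44, 0.43 and 0.39.

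sqst-1, which encodes the autophagy receptor of the p62 family (locus T12G3.1, chromosome IV, 12034230 to 12037029), had signals of 8.25, 8.28 and 8.31 on vector and 9.29, 9.21 and 9.24 under RNAi in the ire-1 mutant. It rose by 0.97 (SE 0.10, limma adjusted p = 5.59e-07), the arrays of each group lying within 0.1 of each other. In wild type it went from 6.68, 6.95 and 7.09 to 10.13, 10.27 and 10.26, a rise of 3.31. The atf-6 and pek-1 mutants had 3.20 and 3.38. The difference from wild type was -2.35 (SE 0.15, limma adjusted p = 2.61e-10), and on vector the ire-1 mutant was higher by 1.37 (limma adjusted p = 2.18e-09). It thus began above wild type and ended below it.

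Of 36 measured autophagy genes, 11 rose and 5 fell in the ire-1 mutant (median -0.03), against 18 and 1 in wild type (median 0.31). Of all genes, 14.8% rose and 14.1% fell in the mutant, and 16.3% and 18.1% in wild type. The 5 falls were thus a share near that of all genes in the mutant, while the 11 rises were a larger share. The 5 falls became 3 without RNAi replicate 1. The difference was called lower for 11 and higher for 1, against 3.26% and 3.13% of all genes. lgg-2, an Atg8 homologue that coats the autophagosome, rose by 0.44 against 1.22 (difference -0.77, limma adjusted p = 2.2e-05). dct-1, a mitophagy receptor gene, rose by 0.67 against 1.98 (difference -1.31, limma adjusted p = 6.15e-07), and epg-9, of the Atg101 family, by 0.44 against 1.19.

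lgg-1, the other Atg8 homologue and the usual marker of autophagosomes, had signals of 11.40, 11.15 and 11.13 on vector and 11.55, 11.44 and 11.47 under RNAi. Its RNAi arrays were all higher, but the difference of 0.26 (SE 0.10) had a limma adjusted p of 0.0598 and passed in 7 of 16 settings. Wild type rose by 0.82. The difference of -0.55 from wild type (limma adjusted p = 0.0197) was lost without RNAi replicate 2 of the mutant, its vector replicate 1 or wild-type vector replicate 3 (adjusted p = 0.0534, 0.0727 and 0.0531).

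atg-2, which supplies lipid to the growing membrane, rose from 7.52, 7.45 and 7.55 to 8.18, 8.13 and 8.22 (0.67, SE 0.12, limma adjusted p = 2.66e-04), against 1.44 in wild type. hlh-30, the TFEB homologue that drives autophagy and lysosome genes, went from 7.94, 7.89 and 7.94 to 9.08, 8.86 and 9.14 (1.1, SE 0.14, limma adjusted p = 2.85e-06). Both were higher on every RNAi array. hlh-30 rose by 1.28 in wild type, with no called difference between the genotypes, and unc-51, the Atg1 kinase gene, by 0.64 in the mutant and 1.04 in wild type. mxl-3, known as a repressor of lipases and of hlh-30, rose by 0.66 in the mutant and had -0.02 in wild type (difference 0.68, limma adjusted p = 0.0067).

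**Figure D4:**
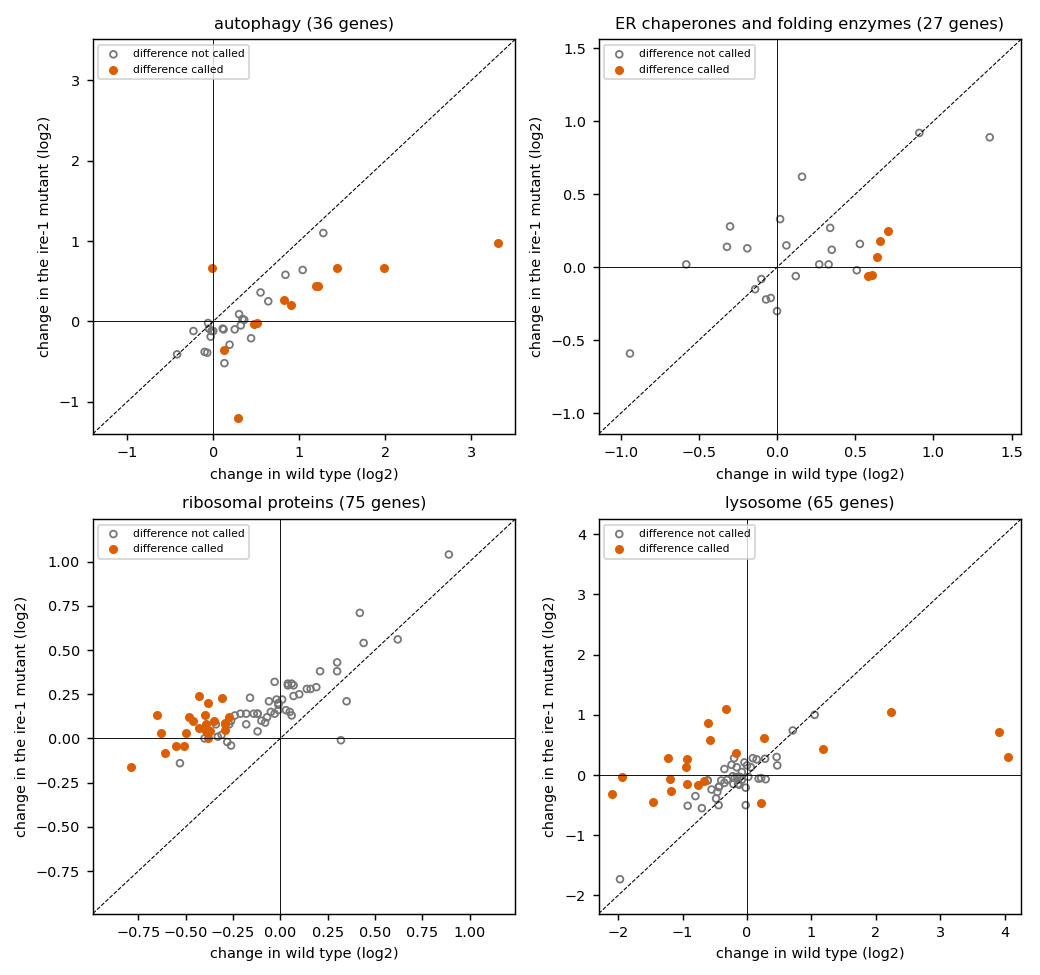
Change under pmt-2 RNAi in the ire-1 mutant against that in wild type (both log2) for the members of 4 gene lists, with filled points where the difference was called and a dashed line of equal change. Autophagy genes and ER chaperones lie mostly under the line, ribosomal protein genes above it, and lysosomal genes on both sides with asp-17 and cpr-3 near 4 in wild type and under 1 in the mutant.

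Of 65 measured lysosomal genes, 13 rose and 11 fell in the ire-1 mutant (median -0.05), shares of 20% and 16.9% that are not far from the 14.8% and 14.1% of all genes. In wild type 9 rose and 29 fell (median -0.21). The difference was called higher for 16 and lower for 5, against 3.13% and 3.26% of all genes. The 11 falls lay between 4 and 7 when any single array of the mutant was left out. cpr-1, a cathepsin B-like protease gene of the gut, rose from 9.38, 9.19 and 9.34 to 10.23, 10.20 and 10.11 (0.87) and changed by -0.61 in wild type (difference 1.48, limma adjusted p = 2.23e-07). cpr-4 and cpr-5 had 1.1 and 0.27 against -0.32 and -0.93. In the other direction, cpr-3 of the same family rose by 0.71 against 3.91 in wild type (difference -3.2, limma adjusted p = 1.21e-09). ncr-1 and ncr-2, the Niemann-Pick C cholesterol transporters, rose by 1.05 and 1.00.

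No gene of the cytosolic ribosome was called lower by limma in the ire-1 mutant. Of 75 ribosomal protein genes, 15 rose and 0 fell (limma, adjusted p; median 0.13), against 5 and 31 in wild type (median -0.16), 2 and 34 in the atf-6 mutant and 9 and 31 in the pek-1 mutant. The 15 rises were 20% of the list, not far from the 14.8% of all genes that rose in the ire-1 mutant. The 31 falls in wild type were 41.3%, where 18.1% of all genes fell. The difference was called higher for 24 against wild type and for 32 against the mean of the others, and lower for 0 in both. Of all genes, 3.13% and 4.45% were called higher in these contrasts. rpl-7A had 0.13 against -0.65 in wild type (difference 0.78, limma adjusted p = 0.00126) and rpl-23 had 0.03 against -0.63 (difference 0.66, limma adjusted p = 0.0019). rpl-23A.1 rose in both, by 1.04 and 0.89, and rpl-11.2 rose by 0.71.

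These counts moved with single arrays. The 15 rises became 9 without vector replicate 1, vector replicate 3 or RNAi replicate 2, and 8 without RNAi replicate 3. Centring on the median change made them 28. The 24 differences became 9 without wild-type vector replicate 2, 10 and 11 without wild-type RNAi replicates 1 and 3, and 12 to 15 without any of 5 arrays of the mutant: 13 without vector replicates 1 or 3, 12 without RNAi replicates 1 or 3 and 15 without RNAi replicate 2. Fitted on the 12 arrays of the contrast alone, 3 were called. Of the 33 aminoacyl-tRNA synthetases, which charge tRNAs for translation, 8 fell and 0 rose in the mutant (limma; median -0.15), against 23 falls in wild type (median -0.37). The 8 became 5 without vector replicate 3, RNAi replicate 1 or RNAi replicate 3.

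Of 6 measured yolk genes, 4 fell in the ire-1 mutant and in wild type, and the difference between the genotypes was called for 2, vit-1 and vit-4. vit-1, one of the vitellogenins that the gut makes for oocytes, stood at 11.27, 11.22 and 10.97 on vector and at 9.16, 10.13 and 9.98 under RNAi. It was lower on every RNAi array, by 1.40 (SE 0.37, limma adjusted p = 0.00656), a call lost without RNAi replicate 1 (adjusted p = 0.0554). In wild type its mean went from 12.62 to 7.96, and the difference of the responses was 3.27, called in all 22 settings. vit-4 fell by 1.35 (limma adjusted p = 0.0203) and vit-5 by 0.68, and rme-2, the yolk receptor gene of the oocyte, by 0.62. Without RNAi replicate 1 none of these 4 calls held, and vit-4 also lost its call without vector replicate 2 or 3 (adjusted p = 0.0667 and 0.0505). vit-2 and vit-6 had 0.16 and -0.09 and were not called.

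ges-1, the gut esterase and a classical intestinal marker, rose from 4.85, 4.87 and 4.85 to 5.94, 5.87 and 5.79 (1.01, SE 0.11, limma adjusted p = 8.36e-07). In wild type it had -0.08, at means of 5.91 and 5.83. RNAi thus brought the mutant to the wild-type level from a vector level lower by 1.06. Over the 27 intestinal markers measured, 13 rose and 3 fell in the mutant (median 0.28), against 7 and 5 in wild type; the 13 became 8 without RNAi replicate 1. In whole-animal RNA, fewer cells of a type and less RNA per cell cannot be told apart.

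A few genes that fell in the ire-1 mutant stood higher on its vector arrays than in wild type on vector; they were singled out after their values were seen. hch-1, a hatching protease gene, had signals of 6.36, 5.72 and 6.98 on vector and 4.23, 5.28 and 4.26 under RNAi, a fall of 1.76 (limma adjusted p = 0.014). The groups did not overlap. The call was lost without vector replicate 3, RNAi replicate 1 or RNAi replicate 3 (limma adjusted p = 0.0803, 0.0626 and 0.0558). In wild type hch-1 had 4.41, 4.04 and 4.23 on vector and 7.04, 3.94 and 6.66 under RNAi, replicate 2 standing apart, and it changed by 3.33 and 1.47 in the atf-6 and pek-1 mutants. The response in the ire-1 mutant was lower than their mean by 3.92 (limma adjusted p = 7.47e-05).

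ces-2, a bZIP factor of cell death specification, fell from 5.90, 5.10 and 5.99 to 3.78, 3.86 and 3.71 (-1.88), while wild type had means of 4.11 and 4.19. cav-1, a caveolin found in the germ line and early embryo, fell from 9.68, 9.30 and 10.08 to 7.37, 8.38 and 7.91 (-1.80). epg-2, a nematode adaptor for autophagic removal of P granules in embryos, fell from 7.10, 6.71 and 7.39 to 5.52, 6.38 and 5.71 (-1.2, SE 0.30, limma adjusted p = 0.00382). None of the 3 overlapped between groups. dpy-14, a collagen gene, fell by 1.96 and lost its call without vector replicate 3 (adjusted p = 0.0584). The wild-type responses of these genes carry the same RNAi replicate 2, which was low: 3.34 for ces-2, 7.06 for cav-1 and 2.91 for dpy-14.

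Genes of cell division and the oocyte fell in the mutant as in wild type, whereas fewer germline and meiosis markers were called lower in the mutant. Of 34 genes of DNA replication and the cell cycle, 28 fell and 0 rose in the ire-1 mutant (limma; median -0.45), and 28 fell and 1 rose in wild type (median -0.48), with 14.1% of all genes falling in the mutant. cyb-2.1 and cyb-2.2, B-type cyclins, fell by 0.85 and 0.79 and rnr-2, a subunit of ribonucleotide reductase, by 0.73. Of 27 oocyte and eggshell markers, 17 fell and 0 rose (limma; median -0.49), among them the chitin synthase chs-1 (-0.70) and egg-2 (-0.66). The 17 became 11 without vector replicate 3 and 8 without RNAi replicate 1. Of 32 germline and meiosis markers, 8 fell and 1 rose in the mutant (median -0.24), against 21 and 1 in wild type (median -0.46). The difference between the genotypes was called higher for 3 of them and lower for 0 (limma). Of 61 sperm markers, 32 rose and 1 fell (median 0.68), with spe-4 and fer-1, needed for the membranous organelles of sperm, rising by 1.61 each. Wild type had 25 and 2. Many sperm markers were dim: in the mutant 43 of the 61 had a mean under 5 on vector and 37 under RNAi.

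Among markers of neurons, muscle and epidermis, more were called higher than lower. Of 59 neuron markers, 39 rose and 1 fell in the mutant (median 0.66), and 47 and 0 in wild type (median 0.95), with the neuropeptide genes flp-9 and flp-18 at 1.54 and 1.40 and ida-1, of dense-core vesicles, at 1.38. Of 32 muscle markers, 17 rose and 1 fell (median 0.33), against 6 and 6 in wild type (median -0.05), with the pharyngeal myosins myo-2 and myo-1 at 1.54 and 1.33. The muscle difference was called higher for 7, which became 4 without wild-type vector replicate 2 or RNAi replicate 1. Of 15 epidermis markers, 9 rose and 1 fell (median 0.60). The part of a shift in cell types in the responses above was not tested.

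Cuticle and moulting genes were called higher more often than lower. Of 128 moulting and hedgehog-related genes, 59 rose and 8 fell in the mutant (median 0.42), against 43 and 8 in wild type (median 0.15); the 8 falls became 5, 4, 5 and 5 without vector replicates 1 and 3 and RNAi replicates 1 and 2. nas-38, an astacin protease gene, rose by 2.37 and mlt-11, a moulting protease inhibitor gene, by 2.17. Of the 128 genes, 81 had a mean under 5 in the mutant on vector and 67 under RNAi. Of 229 collagen and cuticle genes, 75 rose and 17 fell (median 0.26), against 55 and 37 in wild type (median 0.07). The 75 became 44 without vector replicate 3, and the 17 became 11 without vector replicate 2, vector replicate 3 or RNAi replicate 3. dpy-6, a cuticle gene, rose from 4.72, 4.42 and 3.86 to 6.80, 6.68 and 6.73 (2.40) and had -0.20 in wild type, a difference of 2.60 (limma adjusted p = 8.05e-04). Differences from wild type in these lists turned on wild-type RNAi replicate 2: those called higher were 14 for collagen and cuticle genes and 38 without that array, and 8 for moulting genes and 25 without it. Of 67 abu and pqn genes, 34 rose and 1 fell (median 0.36), against 29 and 5 in wild type (0.42), with pqn-2 and abu-7 at 1.91 and 1.83.

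**Figure D5:**
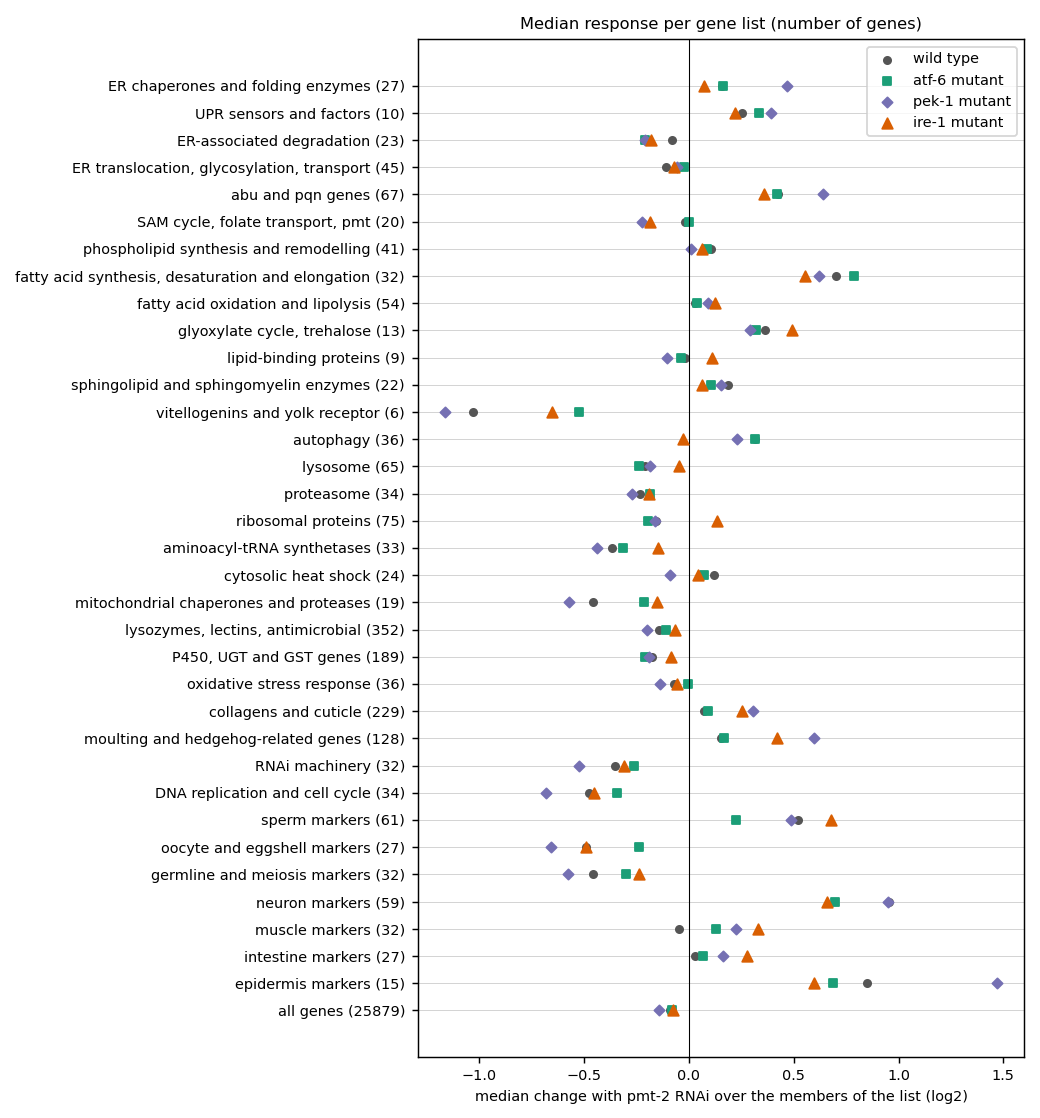
Median change under pmt-2 RNAi (log2) of each gene list, the list of 2 pud genes left out, and of all genes in the 4 genotypes, 1 point per list and genotype. The ire-1 mutant is above the other genotypes for ribosomal proteins (0.13 against -0.16 in wild type) and below them for autophagy genes (-0.03 against 0.31).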

How the data were processed

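Total RNA of whole worms was measured on 30 Affymetrix arrays, 300 ng per sample per the labels' protocols. The authors deposited log2 signals per array, which per the submitters' processing notes come from RMA (version not named). Of 29317 probe sets, 28387 with annotation were used and 930 left out. The 12 deposited comparison tables give each group's mean and SD on the same log2 scale and the authors' deposited FDR p-values. Their SDs matched the arrays to rounding, and no group value differed between tables.

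From these, limma 3.58.1 in R 4.3.3 fitted means of 10 groups to all arrays (20 residual degrees of freedom, 24.3 with the prior). The contrasts were RNAi minus vector within the ire-1 mutant, and that response minus the response of wild type or the mean of 3 genotypes. Of the probe sets, 25930 name 1 gene, 651 several and 1806 none, and 25619 matched the WBcel235 gene table, used for names only. A gene is its probe set with the highest mean. On simulated data for the contrast within the ire-1 mutant (28387 probe sets, 200 of them changed per run), the test found 31% of 1.5-fold, 83.6% of 2-fold and 99.1% of 4-fold changes, and 1.81% of its calls were false. In the real contrast 28.1% of probe sets were called, so these shares do not carry over to it.

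The members, the lists and the naming rule were chosen with earlier results of these data known. Genes were named if they were pmt-2 or ire-1, among the 15 largest rises and falls, the 8 largest differences each way in each interaction or the first 4 called members of a list, with a set of pathway genes added. Further list members are named where a count turns on them, chosen after their values were seen. Slide and scan dates were not used here. Alternatives changed the arrays in the fit, the variance model, weights, normalisation, centring, a filter, the replicate number and a fold minimum. Python 3.11.15 with pandas 2.3.3 and numpy 2.4.6 made the tables, and matplotlib 3.10.9 the figures.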

Additional observations from a re-analysis of the deposited data

Results flagged for a closer look

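These genes stand out because the test of the difference between genotypes itself was passed, and they are the largest differences in each direction. Values are the response to pmt-2 RNAi in the ire-1 mutant minus that of the comparison, on the log2 scale, with limma adjusted p-values under the threshold of 0.05.

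Against wild type, the response of the ire-1 mutant was higher for pud-3 (3.96), Y48E1B.8 (3.74), pud-4 (3.53), vit-1 (3.27), dhs-26 (3.03), C30G12.2 (2.94), folt-2 (2.83) and pho-11 (2.83). It was lower for Y37H2A.14 (-4.29), B0024.4 (-4.08), F33H12.7 (-4.04), warf-1 (-3.95), Y47H10A.5 (-3.94), F22E5.6 (-3.84), tbb-6 (-3.78) and asp-17 (-3.75). The genes with a higher value fell in wild type, and those with a lower value rose there.

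Against the mean response of wild type, the atf-6 mutant and the pek-1 mutant, it was higher for pud-3 (3.46), Y48E1B.8 (3.27), pud-4 (3.11), acdh-1 (2.93), dhs-26 (2.87), folt-2 (2.78), pho-11 (2.72) and C30G12.2 (2.7). It was lower for Y37H2A.14 (-4.2), hch-1 (-3.92), kreg-1 (-3.67), F33H12.7 (-3.65), B0024.4 (-3.61), F22E5.6 (-3.55), Y47H10A.5 (-3.51) and warf-1 (-3.43). F33H12.7, F22E5.6 and Y47H10A.5 had vector and RNAi means of 4.30 and 4.56, 2.92 and 2.97, and 4.80 and 5.28 in the ire-1 mutant, and of 2.63 and 6.93, 2.17 and 6.05, and 3.13 and 7.55 in wild type. kreg-1 rose by 1.33 in the mutant (SE 0.29, limma adjusted p = 0.00162) and by 4.91 in wild type.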

How the results depend on the processing

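No named gene whose change was called reversed its sign in an alternative; changes that were not called crossed 0 in some, and the balance of rises and falls within the ire-1 mutant turned. Within the ire-1 mutant the 7975 calls became 4265 at a 1.5-fold minimum, 68.3% of them higher against 50.8%, and centring on the median change gave 4713 higher and 2471 lower, 65.6% higher. In the other direction, array weights gave 4679 higher and 5215 lower (47.3% higher), quantile normalisation 3693 and 4292 (46.2%) and the filter at 5 gave 3374 and 3552 (48.7%). Leaving out single arrays gave 5698 to 6867 calls. Against wild type the 1775 calls became 1096 with only the arrays of the contrast and 3863 with array weights, which put a weight of 5.82 on wild-type RNAi replicate 3, and 1377 to 2179 without single arrays. Against the mean of the others the 2559 became 3878 with array weights and 1967 to 2861 without single arrays. The authors' deposited FDR p-values called 5800 within the mutant.

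With the replicate number as a block over all arrays, 7965, 1740 and 2549 were called. Same-numbered arrays of the ire-1 mutant had correlated deviations of 0.0809, -0.031 and 0.0816, so the numbers were not taken to pair the arrays. Blocked within each genotype, an alternative chosen after seeing the data, 7278, 1313 and 2029 were called.

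For named genes, leaving out 1 array ended the call in 44 of 1116 repeats within the mutant, and the other alternatives in 9 of 1842. Against wild type these were 97 of 2232 and 45 of 1849. The repeats count every named gene, also genes with no call to lose, so the shares of calls lost are larger than these numbers give. Of the probe sets, 11052 had a mean of at least 5 in a group of the mutant; the others are dim, which limits what their changes show.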

Other observations

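Some stress and defence genes outside the account above also differed between genotypes. hsp-17, a small heat shock gene, rose by 1.28 in wild type and had -0.14 in the ire-1 mutant, a difference of -1.42 (limma adjusted p = 1.2e-05). hsp-70 and hsp-16.2 rose in the mutant by 1.13 and 1.29. The hsp-16.2 call was lost without vector replicate 3 (limma adjusted p = 0.0504). Of 24 cytosolic heat shock genes, the difference from wild type was called lower for 4 and higher for 0. The extracellular superoxide dismutase sod-4 and the catalase ctl-2 rose in the mutant by 1.45 and 1.1, given here without a comparison of genotypes. trx-3, a gut thioredoxin, rose by 1.18 against 3.04 in wild type (difference -1.86, limma adjusted p = 0.0027).

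Of 189 cytochrome P450, UDP-glucuronosyltransferase and glutathione transferase genes, 32 rose (16.9%) and 23 fell (12.2%) in the mutant (median -0.09), near the 14.8% and 14.1% of all genes. In wild type 26 rose and 61 fell (median -0.18). The difference was called higher for 28 (14.8%) and lower for 7 (3.7%), against 3.13% and 3.26% of all genes. The 32 became 21 without RNAi replicate 3. cyp-25A1 had 0.04 against -2.28 in wild type and ugt-30 had 0.06 against -2.16. Of 352 lysozyme, saposin, C-type lectin and antimicrobial peptide genes, 55 rose (15.6%) and 33 fell (9.38%) in the mutant (median -0.06), where 14.8% and 14.1% of all genes did, with clec-180 and clec-7 rising by 2.21 and 2.09; the 33 became 21 without vector replicate 2 or RNAi replicate 3. spp-4, a saposin-like gene, fell by 1.57 against 4.30 in wild type (difference 2.74, limma adjusted p = 1.6e-06).

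Of 32 genes of the RNAi machinery, 15 fell and 2 rose in the mutant (median -0.31), against 19 and 4 in wild type; the 15 became 9 without vector replicate 3 and 7 without RNAi replicate 1. Of 34 proteasome genes, 11 fell and 0 rose (limma; median -0.19), which became 5 without RNAi replicate 1 and 6 without RNAi replicate 3, against 16 falls and 1 rise in wild type. Of 19 mitochondrial chaperone and protease genes, 7 fell and 2 rose (median -0.15), against 11 and 3 in wild type (median -0.46); the 7 became 4 without RNAi replicate 1 or 3. hsp-60 had -0.26 against -0.79 (difference 0.53, limma adjusted p = 0.0051).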
